A study of Arabidopsis with 12 samples.

Results

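A set of 10 named loci of Arabidopsis thaliana encodes the receptors and the channel of the chloroplast protein import machinery in the outer envelope, the translocon at the outer envelope of chloroplasts (TOC), together with close partners. They were taken by locus identifier: TOC33 (AT1G02280), TOC34 (AT5G05000), TOC159 (AT4G02510), TOC132 (AT2G16640), TOC120 (AT3G16620), TOC90 (AT5G20300), TOC75-III (AT3G46740), OEP80 (AT5G19620), TOC64-III (AT3G17970) and SP1 (AT1G63900, DAL1 in RefSeq). These are 10 of the 27655 genes in the table, and all 10 passed the filter on low values, a level of at least 1 TPM in at least 3 libraries. RNA sequencing covered 12 libraries of seedlings that all carry the flu mutation, which lets the chlorophyll precursor protochlorophyllide build up in darkness and release singlet oxygen on a return to light. The flu dark group was flu seedlings, 7 d old by the sample labels and 6 d by the design text, raised in continuous light and then kept 4 h in darkness. The flu light group had 1 h of light after the same dark period, and the flu toc33 dark and flu toc33 light groups had these treatments in flu seedlings that also carry toc33-1, a mutant allele of TOC33. Each group had 3 libraries, and wild type seedlings were not analysed here.

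Most chloroplast proteins are made in the cytosol with a transit peptide and are drawn through the TOC complex and then through the inner envelope complex, TIC. The small GTPases TOC33 and TOC34 and the large GTPases of the TOC159 family bind the transit peptide, and TOC75-III, a beta-barrel protein, forms the channel. In Arabidopsis, complexes with TOC159 and TOC33 are known for importing the abundant photosynthetic proteins, while TOC132, TOC120 and TOC34 are tied more to housekeeping proteins. SP1 is a RING-type ubiquitin ligase of the outer envelope that marks TOC proteins for degradation, and it was found as a suppressor of a toc33 mutant, ppi1.

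Levels are in TPM, transcript abundance per length scaled so that each library sums to 1000000, and were summed over the transcripts of each locus, so read depth is unknown here and no counting interval can be given. Differences are log2(TPM + 1) values with their standard error from limma, fitted over all 12 libraries and adjusted by Benjamini-Hochberg over the 19667 genes tested, with a two-sided threshold of 0.05, and a gene past it is said to be called. The sources used here do not say whether the replicates came from separate cultures, so the p-values measure the spread between these libraries. Flu light follows flu dark by 1 h, so light and elapsed time cannot be told apart. Flu dark replicate 3 stood apart: its median absolute log2 difference from the other flu dark libraries was 0.152 and 0.155, against 0.0653 to 0.0858 for all other replicate pairs, and member calls that change without it are given both ways. The tissue is labelled leaf while the sample titles speak of seedlings. All 4 leaf mesophyll markers were present, at a summed 37030 to 41266 TPM in flu dark, 34869 to 37645 in flu light, 28760 to 29861 in flu toc33 dark and 25513 to 26231 in flu toc33 light. The fall of this sum lay mainly in LHCB1.3, an antenna protein, with means of 15851, 14009, 7737 and 4871 TPM. RBCS1A was also lower in flu toc33 in the dark (-0.12) and in the light (-0.22). CA1 was lower in flu toc33 in the dark (-0.16), and its value in the light, 0.03, was not called. RCA was higher in flu toc33 in the dark (0.19) and in the light (0.33). Of the 6 root markers, 4, 2, 4 and 4 reached 1 TPM in these groups, nearly all of the sum being PYK10, a root beta-glucosidase, and IRT1 and COBL9 were under 1 TPM. Their sums were 1148 to 1346, 795 to 839, 1523 to 1571 and 1335 to 1365 TPM in the same order. In the dark, PYK10 was higher in flu toc33 (0.29) and CASP1 lower (-0.46), while CASP2 (0.28) and EXPA7 (0.30) were not called. In the light, PYK10 (0.72), CASP1 (0.66), CASP2 (0.45) and EXPA7 (1.43) were higher in flu toc33. Guard cell (3 genes), epidermis (2) and vascular (3) markers were present in every group, with sums of 36.5 to 48.5, 212 to 369.5 and 81.2 to 127 TPM; the epidermis sum was highest and the vascular sum lowest in flu toc33 light. Of the vascular markers, SUC2 (-0.53) and APL (-0.22) were lower in flu toc33 than in flu in the light, and XCP1 was higher (0.26). In bulk RNA, fewer cells of a type and less RNA per cell cannot be told apart, and the part of tissue makeup in the results below was not tested.

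In flu, the receptors TOC33, TOC159, TOC132 and TOC120 fell on the return to light, and no member was called higher. In flu toc33, TOC33, SP1, TOC159 and TOC132 fell with the same light step, while TOC34, TOC75-III, OEP80 and TOC64-III rose. In the dark, the toc33-1 seedlings had less TOC33 and SP1 and more TOC159 and TOC90. In the light, all members but TOC33 and SP1 were higher in flu toc33 than in flu. Among these 8, TOC159 and TOC132 lost their call with median-ratio scaling. Calls lost in other alternatives are given by gene below. These statements rest on the following counts. In flu, 0 members were called higher and 4 lower in the light, where 28.2% and 33.4% of all genes tested were called. Without flu dark replicate 3 the members lower were 7, where 7435 of 19607 genes tested were called lower. In flu toc33, 4 were higher and 4 lower, against 40.4% and 30.6% of all genes. In the dark, 2 were higher and 2 lower in flu toc33, against 20.9% and 20.5%. Without flu dark replicate 3 the members lower in the dark were 4, where 4698 of 19607 genes were called lower. In the light, 8 were higher and 2 lower, against 39.0% and 27.9%. The change of the light response with genotype (the interaction) was called positive for 5 members and negative for 3, against 31.6% and 25.1% of all genes. Member medians of the log2 difference, in the order light in flu, light in flu toc33, genotype in the dark, genotype in the light and interaction, were -0.09, -0.00, 0.04, 0.31 and 0.25, beside -0.04, 0.07, 0.01, 0.08 and 0.07 over all genes tested. The 2 groups' libraries did not overlap for 5 members with light in flu, 9 with light in flu toc33, 5 between genotypes in the dark and 10 in the light. The same held for 63.6%, 77.5%, 49.5% and 74.0% of all genes tested. With so many genes called, a count of members is read against those shares.

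**Figure D1:**
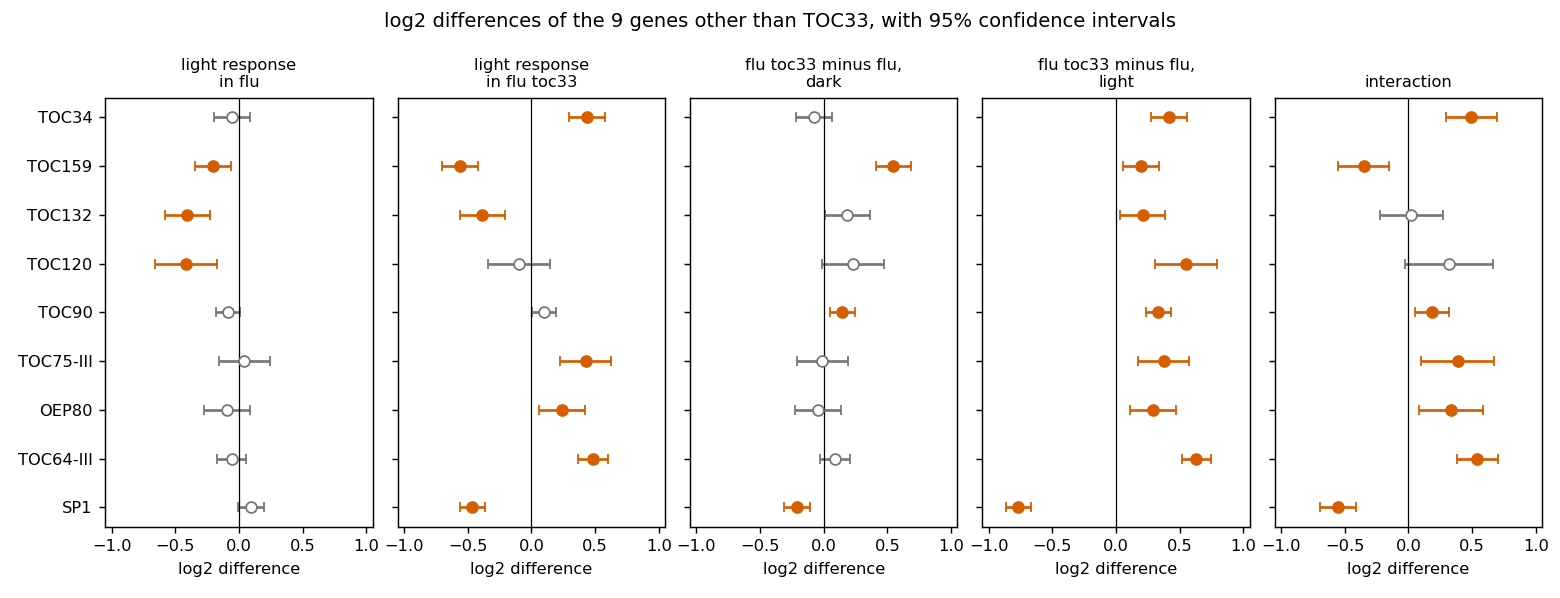
Log2 difference in TPM + 1 (horizontal axis) for the 9 members other than TOC33, 1 panel per comparison; points are limma estimates, bars 95% confidence intervals, and filled points passed the adjusted threshold of 0.05. Of these 9, 8 lie to the right of 0 between genotypes in the light, and SP1 lies to the left at -0.77.

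Ordered by level, flu dark and flu light began alike, with TOC33, then TOC159, then TOC75-III. The libraries of these neighbours did not overlap. In flu dark, TOC132, SP1, TOC34 and TOC64-III followed with overlapping ranges, then TOC90 and OEP80, also overlapping, and TOC120 was lowest. In flu toc33 dark, TOC159 led, followed by TOC75-III and TOC33. In flu toc33 light, TOC159 and TOC75-III led with overlapping ranges, then came TOC64-III and TOC34, and TOC33 was below TOC120 at the bottom. The summed level of the 10 members was 592.5 ± 27.9 TPM in flu dark, 532 ± 10.6 in flu light, 497 ± 6.03 in flu toc33 dark and 436 ± 10.4 in flu toc33 light (SD, n = 3). Without TOC33, the other 9 members summed to 389 ± 37.7, 360 ± 8.37, 448 ± 5.57 and 432 ± 10.5 TPM. Without flu dark replicate 3, the flu dark mean of the 9 was 411 TPM (n = 2). The genotype order of the sums therefore turned around once TOC33 was set aside.

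**Figure D2:**
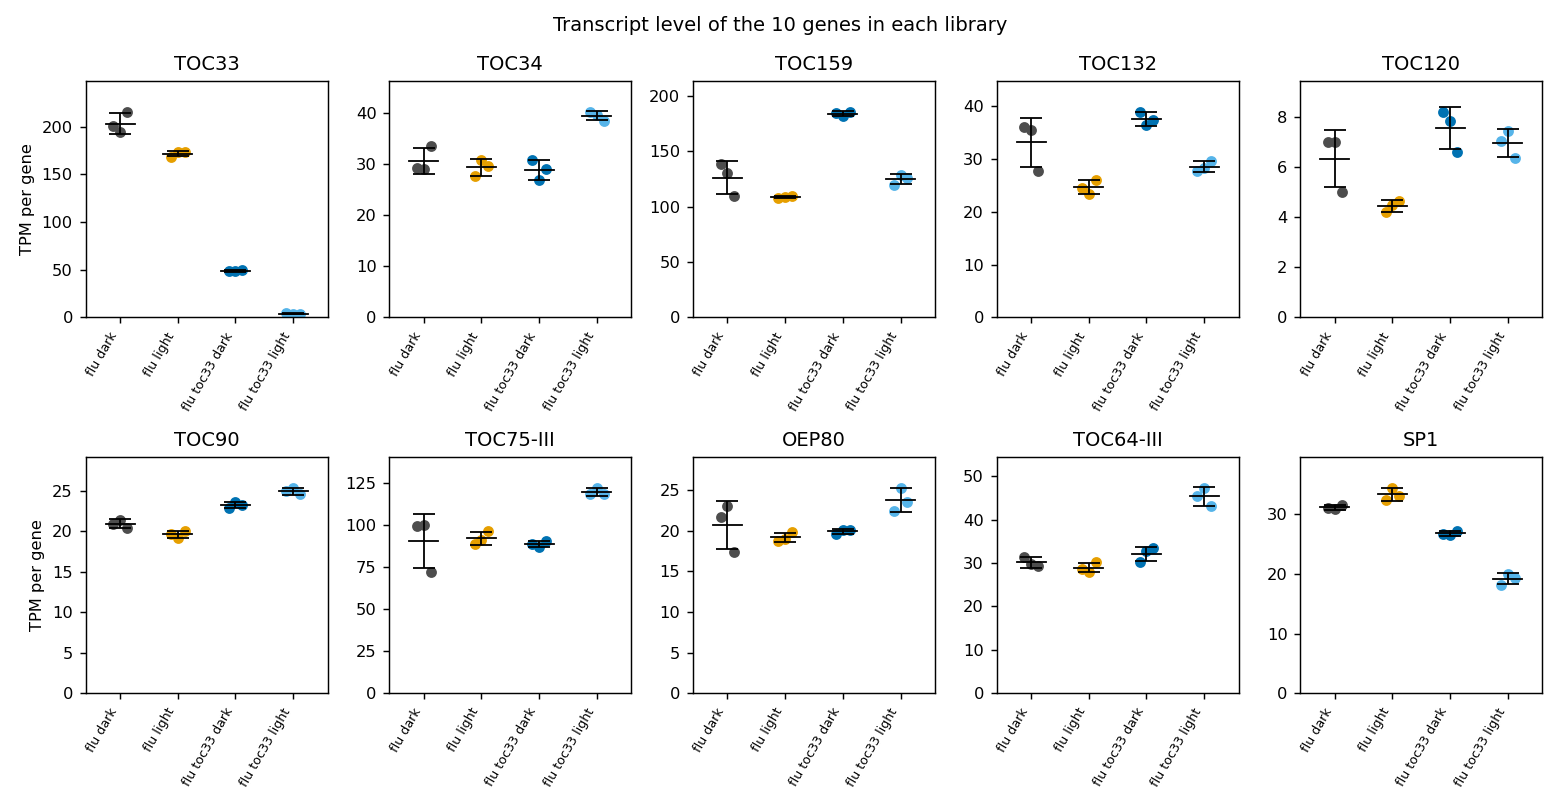
TPM of each member (vertical axis, own scale per panel) in the 4 groups; points are single libraries, the middle line is the mean and the outer lines mark 1 SD, n = 3. TOC33 falls from a mean of 203 TPM in flu dark to 3.97 TPM in flu toc33 light, and TOC34, TOC75-III and TOC64-III are highest in flu toc33 light.

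TOC33 is the small receptor altered by toc33-1. It stood at 200.4, 194 and 215.5 TPM in flu dark and at 169, 173.5 and 173 in flu light. In flu toc33 dark it was 48.4, 48.2 and 49.4 TPM, and in flu toc33 light 4.28, 3.88 and 3.76. Every flu toc33 library was below every flu library, and every light library below every dark one of its genotype. Flu toc33 dark kept 23.9% of the flu dark level and flu toc33 light 2.31% of the flu light level. Light lowered TOC33 by a log2 of -0.24 ± 0.05 in flu (adjusted p = 0.000663) and by -3.32 ± 0.05 in flu toc33 (adjusted p = 9.08e-16). The genotype difference was -2.04 in the dark (adjusted p = 3.65e-12) and -5.12 in the light (adjusted p = 2.96e-16), and the interaction was -3.08 ± 0.07 (adjusted p = 7.21e-13). Over other processing settings and left-out libraries, the interaction ranged from -3.342 to -2.345. The light response in flu toc33 ranged from -3.584 to -2.581, so these sizes depend on the settings by more than their standard errors. No source used here gives the position of the toc33-1 change within the locus, so RNA still counted to TOC33 may or may not be full length.

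The locus has 2 annotated transcripts, and both fell. The first, AT1G02280.1, was at 171, 162 and 181 TPM in flu dark, 141, 143 and 150 in flu light, 40.8, 40.9 and 41.1 in flu toc33 dark, and 3.69, 3.65 and 3.53 in flu toc33 light. The second, AT1G02280.2, was at 28.9, 32.4 and 34.3 TPM in flu dark, 27.7, 30.3 and 23.2 in flu light, 7.54, 7.34 and 8.25 in flu toc33 dark, and 0.590, 0.229 and 0.236 in flu toc33 light. No flu toc33 library overlapped a flu library for either transcript. AT1G02280.1 held 84.3 ± 1.14%, 84.2 ± 2.12%, 84.2 ± 0.774% and 91.4 ± 4.45% of the locus in the 4 groups (SD, n = 3), so the shares were near each other in all groups but flu toc33 light. In a limma fit of single transcripts, AT1G02280.1 was lower in the light by -0.24 in flu (adjusted p = 0.000833) and -3.18 in flu toc33 (adjusted p = 1.76e-13). AT1G02280.2 fell by -2.70 in flu toc33 (adjusted p = 4.07e-09), and its flu value of -0.23 was not called (adjusted p = 0.149). Between genotypes, the first transcript differed by -2.04 in the dark and -4.98 in the light and the second by -1.91 and -4.38, all called. Of all 28938 transcripts tested, 23.5% were called lower with light in flu, 24.0% with light in flu toc33, 11.9% and 21.6% between genotypes in the dark and light, and 18.2% had a negative interaction. Below about 1 TPM, as in flu toc33 light, the log2(TPM + 1) scale understates the fold of AT1G02280.2.

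Profiles most like that of TOC33 were sought over the 12 libraries among 12292 genes averaging 10 TPM or more, by the root mean square (RMS) difference of log2(TPM + 1) values centred on each gene's mean. The nearest to TOC33 was LHB1B1 (AT2G34430, also LHCB1.4), a light-harvesting antenna protein, at an RMS of 0.259 beside an RMS of 2.14 for the profile of TOC33 itself. LHB1B1 was at 1390, 1441 and 1494 TPM in flu dark, 953, 1009 and 940.2 in flu light, 427, 462 and 464 in flu toc33 dark, and 37.8, 32.5 and 38.6 in flu toc33 light. It kept 31.3% of the flu dark level in flu toc33 dark and 3.75% of the flu light level in flu toc33 light, where TOC33 kept 23.9% and 2.31%. Antenna genes have near-identical copies, so its count may be divided among them. The next genes were far more distant, FTM1, a stearoyl-ACP desaturase gene, at 0.796 and DIN11, a dark-induced gene, at 0.851, and the nearest member to TOC33 was SP1 at 1.85.

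**Figure D3:**
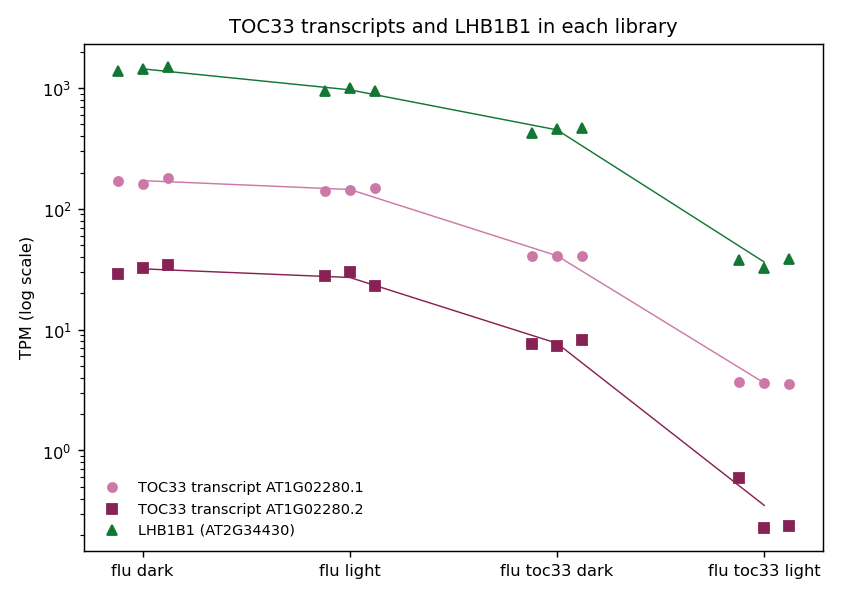
TPM of the 2 TOC33 transcripts and of LHB1B1 (vertical axis, log scale) in the 4 groups; points are single libraries and lines join the group means. All 3 step down from flu to flu toc33 and again from flu toc33 dark to flu toc33 light.

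TOC34, the paralogue of TOC33, stood at 29.2, 29.0 and 33.6 TPM in flu dark and 27.7, 30.8 and 29.7 in flu light. It was 30.8, 26.9 and 29.1 TPM in flu toc33 dark and 40.2, 39.7 and 38.5 in flu toc33 light. The first 3 groups overlapped and flu toc33 light lay above all of them. Light raised TOC34 in flu toc33 by 0.44 ± 0.07 (adjusted p = 3.93e-05), and in the light flu toc33 was higher than flu by 0.41 (adjusted p = 8.01e-05). In flu the light difference was -0.05 (95% interval -0.20 to 0.09), in the dark the genotype difference was -0.08 (-0.22 to 0.06), and neither was called. The interaction was 0.49 ± 0.09 (adjusted p = 0.00049). Its first transcript, which held 64.4 to 73.1% of the locus over the group means, rose with light in flu toc33 by 0.61 (adjusted p = 0.00035). The minor transcripts AT5G05000.2 (0.02, adjusted p = 0.984) and AT5G05000.3 (-0.07, adjusted p = 0.601) were not called there.

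Together the 2 small receptors summed to 234 ± 13.6 TPM in flu dark, 201 ± 4.28 in flu light, 77.6 ± 2.17 in flu toc33 dark and 43.4 ± 1.14 in flu toc33 light (SD, n = 3). TOC34 made up 13.1% of this sum in flu dark, 14.6% in flu light, 37.2% in flu toc33 dark and 90.9% in flu toc33 light. Each of the 4 group comparisons of the sum gave an exact two-sided permutation p of 0.1, the smallest that 3 against 3 libraries allow. TOC34 thus held most of the small receptor RNA in flu toc33 light and the smaller part in the other 3 groups.

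**Figure D4:**
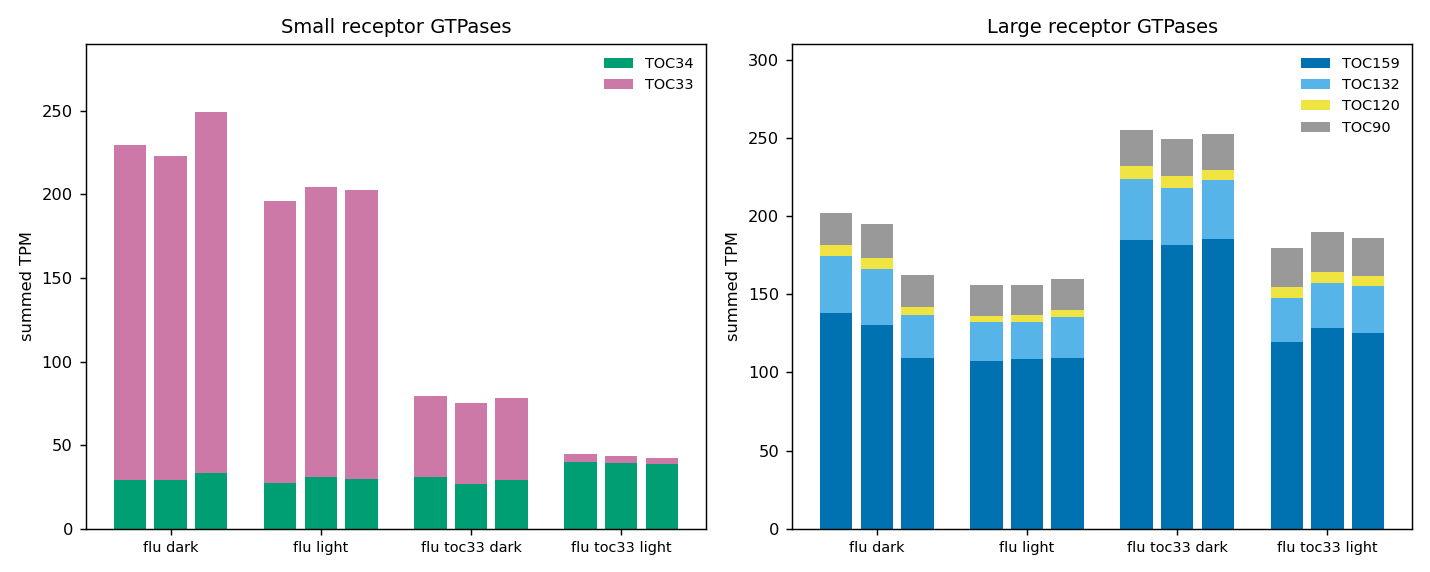
Summed TPM of the small receptors and of the large receptors (vertical axis), 1 bar per library, stacked by gene and ordered by group. The small receptors fall from a mean of 234 TPM in flu dark to 43.4 TPM in flu toc33 light, while the large receptors are highest in flu toc33 dark at a mean of 252 TPM.

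TOC159 is the main large receptor, and it was the highest of its family in every group. It stood at 138, 131 and 109 TPM in flu dark, 107.5, 109 and 109 in flu light, 185, 181 and 185 in flu toc33 dark, and 119.5, 129 and 125.5 in flu toc33 light. Flu toc33 dark lay clear above all other groups, and flu dark replicate 3 reached down to flu light. In the dark, TOC159 was 45.8% higher in flu toc33, a log2 of 0.55 ± 0.07 (adjusted p = 1.72e-05). Light lowered it by -0.56 in flu toc33 (adjusted p = 3.37e-06) and by -0.21 in flu (adjusted p = 0.0141), and the interaction was -0.35 ± 0.09 (adjusted p = 0.0053). In the light, flu toc33 was higher by 0.20 (adjusted p = 0.0168), a call lost with median-ratio scaling (0.09, adjusted p = 0.13) and without flu toc33 light replicate 2 (0.17, adjusted p = 0.0619). The light call in flu was lost without flu dark replicate 1 (-0.14, adjusted p = 0.0703) or 2 (-0.18, adjusted p = 0.0531), and in a fit of the compared groups alone (adjusted p = 0.055). The gene span of TOC159 shares 1442 of its 7356 bases with GSTF2 (AT4G02520), a glutathione transferase, in the RefSeq table of TAIR10.1. GSTF2 was at 887 ± 27 TPM in flu dark, 635 ± 8.79 in flu light, 677 ± 6.03 in flu toc33 dark and 458 ± 6.89 in flu toc33 light, so the means of both genes fell with light in each genotype, and in the dark GSTF2 was lower in flu toc33 where TOC159 was higher. No source used here says whether reads were assigned by strand, and reads shared by the 2 genes cannot be told apart. The transcript AT4G02510.3 held 94.0 to 96.9% of TOC159 in the group means. A minor transcript, AT4G02510.4, with 2.7 to 5.0%, went against the locus in the light, where it was lower in flu toc33 (-0.44, adjusted p = 0.0198).

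TOC132 and TOC120 are close relatives known for receptors of housekeeping precursors, and reads of such similar sequences may be divided between them. TOC132 stood at 36.1, 35.6 and 27.8 TPM in flu dark, 24.5, 23.4 and 26.0 in flu light, 39.0, 36.5 and 37.4 in flu toc33 dark, and 27.8, 28.3 and 29.7 in flu toc33 light. Its light libraries lay below its dark ones in both genotypes. Light lowered TOC132 by -0.41 ± 0.08 in flu (adjusted p = 0.000664) and by -0.38 in flu toc33 (adjusted p = 0.0008). The interaction was 0.02 (95% interval -0.23 to 0.27) and was not called. In the fit of single transcripts, the main one, AT2G16640.1, fell with light in both genotypes (-0.53 in flu, -0.37 in flu toc33). The minor AT2G16640.2, at group means of 0.436 to 1.605 TPM, was called higher with light in flu (0.83, adjusted p = 0.0171). Its interaction was called negative (-0.98, adjusted p = 0.0472). In the light, flu toc33 was higher by 0.21 (adjusted p = 0.0377), but this call was lost in 8 of 20 alternatives, among them median-ratio scaling (0.10, adjusted p = 0.189) and the fits without flu light replicate 1 (0.21, adjusted p = 0.0796) or 2 (0.17, adjusted p = 0.127) or without flu toc33 light replicate 1 (0.23, adjusted p = 0.0524), 2 (0.21, adjusted p = 0.0678) or 3 (0.18, adjusted p = 0.114). With the replicate number as a block it was also lost (adjusted p = 0.0519). In the dark the value of 0.19 was not called (adjusted p = 0.0859), and it was called without flu dark replicate 1 (0.25, adjusted p = 0.0338) or 2 (0.24, adjusted p = 0.0462). Median-ratio scaling over all 12 libraries also gave a call (0.19, adjusted p = 0.0367).

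TOC120, the lowest receptor, stood at 6.99, 6.97 and 5.001 TPM in flu dark, 4.18, 4.46 and 4.66 in flu light, 8.19, 7.84 and 6.58 in flu toc33 dark, and 7.05, 7.44 and 6.36 in flu toc33 light. Flu light lay below all other groups, and the 2 flu toc33 groups overlapped. Light lowered TOC120 in flu by -0.42 ± 0.11 (adjusted p = 0.00548), while its flu toc33 value of -0.10 (95% interval -0.34 to 0.14) was not called. With quantile normalization that flu toc33 value was called lower (-0.24, adjusted p = 0.038). In the light, flu toc33 was 56.7% higher (log2 0.55, adjusted p = 0.000712). The dark genotype value of 0.23 was not called (adjusted p = 0.121), and it was called with quantile normalization (0.27, adjusted p = 0.0368). The interaction of 0.32 was not called (adjusted p = 0.106) over all libraries, and without flu dark replicate 3 it was 0.46 (adjusted p = 0.00571).

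TOC90, the family member without the acidic domain of its relatives, stood at 20.96, 21.5 and 20.4 TPM in flu dark, 19.7, 19.2 and 20.1 in flu light, 22.9, 23.7 and 23.2 in flu toc33 dark, and 24.9, 25.4 and 24.6 in flu toc33 light. The groups were narrow and none overlapped another. TOC90 was higher in flu toc33 by 0.33 ± 0.04 in the light (adjusted p = 1.48e-05) and by 0.15 in the dark (adjusted p = 0.0163). The dark call was lost without flu toc33 dark replicate 2 (0.14, adjusted p = 0.0607) and in a fit of the compared groups alone (adjusted p = 0.0579). Its light differences, -0.09 in flu and 0.10 in flu toc33, were not called over all libraries, and both were called without flu dark replicate 3 (-0.11, adjusted p = 0.0374, and 0.10, adjusted p = 0.0304). The interaction of 0.19 (adjusted p = 0.0214) was lost with median-ratio scaling (0.08, adjusted p = 0.242) and without flu light replicate 2 (0.17, adjusted p = 0.052) or flu toc33 dark replicate 1 (0.18, adjusted p = 0.0505).

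The 4 large receptors summed to 186 ± 21.2 TPM in flu dark, 157 ± 2.39 in flu light, 252 ± 2.81 in flu toc33 dark and 185 ± 5.32 in flu toc33 light (SD, n = 3), and the flu dark mean was 198.5 without its replicate 3 (n = 2). TOC159 held 67.5%, 69.03%, 72.9% and 67.3% of that sum in this order. The ratio of TOC132 plus TOC120 to TOC159 was 0.313 in flu dark, 0.268 in flu light, 0.246 in flu toc33 dark and 0.285 in flu toc33 light. It was lower in flu toc33 in the dark, where the libraries did not overlap (exact two-sided permutation p = 0.1, the smallest possible), and the genotypes overlapped in the light (exact p = 0.2). With light, the ratio was lower in flu and higher in flu toc33, without overlap in either (exact p = 0.1 for each).

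TOC75-III, the channel, stood at 99.1, 99.6 and 71.7 TPM in flu dark, 88.6, 91.1 and 95.9 in flu light, 88.8, 86.7 and 90.0 in flu toc33 dark, and 118, 122 and 118 in flu toc33 light. Flu dark replicate 3 was the lowest library of all, the flu dark range spanned those of flu light and flu toc33 dark, and flu toc33 light was above every other library. Light raised TOC75-III in flu toc33 by 0.43 ± 0.09 (adjusted p = 0.000937), and in the light flu toc33 was higher by 0.38 (adjusted p = 0.00278). The interaction was 0.39 ± 0.13 (adjusted p = 0.0229) and was lost without flu dark replicate 1 (0.31, adjusted p = 0.0567), flu dark replicate 2 (0.31, adjusted p = 0.057) or flu light replicate 1 (0.36, adjusted p = 0.0529). The light difference in flu was 0.04 (95% interval -0.16 to 0.24) and the genotype difference in the dark -0.01 (-0.21 to 0.19), neither called. Without flu dark replicate 3 these were -0.11 (adjusted p = 0.0137) and -0.17 (adjusted p = 0.002), both called lower.

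The receptors were set against the channel as ratios of TPM. The small receptors summed to 2.68 ± 0.691 times TOC75-III in flu dark, 2.19 ± 0.068 in flu light, 0.877 ± 0.0133 in flu toc33 dark and 0.364 ± 0.0107 in flu toc33 light (SD, n = 3). The flu dark value was 2.28 without its replicate 3, at 3.47 (n = 2). TOC159 was 1.41 ± 0.105 times TOC75-III in flu dark, 1.18 ± 0.0384 in flu light, 2.08 ± 0.017 in flu toc33 dark and 1.04 ± 0.0293 in flu toc33 light. In every comparison of these ratios but the light step of the small receptors in flu, the 2 groups' libraries did not overlap.

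OEP80, an essential relative of TOC75-III that is known for inserting beta-barrel proteins into the outer envelope, stood at 21.7, 23.0 and 17.4 TPM in flu dark, 18.8, 19.0 and 19.9 in flu light, 19.6, 20.1 and 20.1 in flu toc33 dark, and 22.4, 25.3 and 23.5 in flu toc33 light. Flu toc33 light lay above flu light and flu toc33 dark but overlapped flu dark. In the light flu toc33 was higher by 0.29 ± 0.08 (adjusted p = 0.00672). The light rise in flu toc33 was 0.24 (adjusted p = 0.0179), and it was lost without flu toc33 dark replicate 1 (0.23, adjusted p = 0.0509) or flu toc33 light replicate 2 (0.20, adjusted p = 0.077). The interaction of 0.34 (adjusted p = 0.025) was lost without any of 5 libraries, flu dark replicates 1 and 2 (0.30 and 0.26), flu light replicate 1 (0.32), flu toc33 dark replicate 1 (0.32) and flu toc33 light replicate 2 (0.29), with adjusted p from 0.0514 to 0.0651. The values not called, -0.09 for light in flu and -0.04 for genotype in the dark, were called without flu dark replicate 3 (-0.21, adjusted p = 0.00421, and -0.16, adjusted p = 0.0292).

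TOC64-III is a docking protein of the outer envelope that binds chaperones carrying precursors. It stood at 31.5, 29.7 and 29.2 TPM in flu dark, 28.6, 27.96 and 30.1 in flu light, 30.3, 32.7 and 33.4 in flu toc33 dark, and 45.5, 47.4 and 43.1 in flu toc33 light. Flu toc33 light stood clear above the other groups. Light raised TOC64-III in flu toc33 by 0.48 ± 0.05 (adjusted p = 1.88e-06), and in the light flu toc33 was 56.7% higher than flu (log2 0.63, adjusted p = 1.7e-07). The interaction was 0.54 ± 0.08 (adjusted p = 3.73e-05), and the values for light in flu (-0.06) and genotype in the dark (0.09) were not called.

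SP1, the ubiquitin ligase that acts on TOC proteins, stood at 31.1, 30.9 and 31.6 TPM in flu dark, 32.4, 34.5 and 33.1 in flu light, 26.7, 26.5 and 27.2 in flu toc33 dark, and 18.2, 20.02 and 19.4 in flu toc33 light. The 4 groups did not overlap. SP1 was lower in flu toc33 by -0.21 ± 0.05 in the dark (adjusted p = 0.00241) and by -0.77 in the light (adjusted p = 4.51e-09), which is a change of -42.4% in the mean TPM. Light lowered it by -0.46 in flu toc33 (adjusted p = 6.41e-07), its value in flu was 0.09 and not called, and the interaction was -0.56 ± 0.07 (adjusted p = 7.24e-06). Of the 10 members, TOC33 and SP1 were the pair called lower in flu toc33 in both the dark and the light.

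The wider import pathway was described with lists of other known components. Of 21 TIC and stromal import genes, 3 rose and 6 fell with light in flu, 11 rose and 4 fell in flu toc33, 10 were higher and 3 lower in flu toc33 in the dark, and 14 were higher and 1 lower in the light. All genes tested were called in 28.2% and 33.4%, 40.4% and 30.6%, 20.9% and 20.5%, and 39.0% and 27.9% of cases in the same order. Their median log2 differences were -0.05, 0.14, 0.14 and 0.38 in that order, and their interaction was called positive for 11 and negative for 1, against 31.6% and 25.1% of all genes. Without flu dark replicate 3 the counts for light in flu were 5 and 9, where 5357 and 7435 of 19607 genes were called. The stromal chaperone cpHsc70-2, which helps to pull precursors in, was at 111, 113 and 101 TPM in flu dark, 157, 160 and 164 in flu light, 113, 114 and 114 in flu toc33 dark, and 400, 421 and 403 in flu toc33 light. It rose with light by 0.56 in flu (adjusted p = 4.05e-08) and by 1.83 in flu toc33 (adjusted p = 7.68e-14). In the dark, TIC56, a subunit of a TIC complex, was higher in flu toc33 by 0.44 (adjusted p = 2.55e-06), and TIC55, a TIC-associated oxygenase, rose with light in flu by 0.49 (adjusted p = 1.29e-06). TIC20-IV, a minor form of a TIC channel protein, had an interaction of 1.296 (adjusted p = 2.58e-06) from levels between 4.86 and 11.2 TPM in the group means.

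Of 13 other outer envelope import and turnover genes, 12 passed the filter, and TOC75-IV, at 0.572 to 0.752 TPM, did not. With light, 1 rose and 6 fell in flu and 5 rose and 5 fell in flu toc33. Between genotypes 2 were higher and 2 lower in the dark and 3 higher and 4 lower in the light. All genes were called at 28.2% and 33.4%, 40.4% and 30.6%, 20.9% and 20.5%, and 39.0% and 27.9%, so the 5 rises in flu toc33 were near the background. Without flu dark replicate 3, 2 of these genes rose with light in flu, and 3 were higher in flu toc33 in the dark. In that setting 5357 and 4032 of 19607 genes tested were called in the same directions. The interaction was called positive for 2 and negative for 4, against 31.6% and 25.1% of all genes. The medians of the light and genotype differences were -0.11, -0.03, 0.01 and -0.05. J8, a J-domain chloroplast protein, was at 716, 694 and 830 TPM in flu dark, 255, 249.5 and 262 in flu light, 991.5, 994 and 1046 in flu toc33 dark, and 68.6, 66.9 and 66.1 in flu toc33 light. It fell with light by a log2 of -1.54 in flu (adjusted p = 1.09e-11) and -3.89 in flu toc33 (adjusted p = 5.77e-16). SPL2, an SP1-like ligase, fell with light by -0.38 in flu (adjusted p = 0.000175) and -0.73 in flu toc33 (adjusted p = 1.98e-07). OM64, a mitochondrial relative of TOC64, was lower in flu toc33 by -0.81 in the dark (adjusted p = 3.91e-06) and -0.78 in the light (adjusted p = 1.61e-06). Of 4 transcription factors known to raise import or chloroplast genes, all 4 had a positive interaction, against 31.6% of all genes. Without flu dark replicate 3, 3 of the 4 had one, where 7120 of 19607 genes tested did. With light, 2 rose and 1 fell in flu and 2 rose in flu toc33, and between genotypes 1 was lower in the dark and 3 were higher and 1 lower in the light, beside the shares of all genes given above. Without flu dark replicate 3, 3 rose with light in flu toc33, where 8346 of 19607 genes tested did. CIA2, known in Arabidopsis to raise TOC33 and TOC75 expression, was at 23.0, 23.2 and 20.7 TPM in flu dark, 27.9, 29.8 and 29.4 in flu light, 24.2, 23.4 and 22.5 in flu toc33 dark, and 100.5, 101 and 102 in flu toc33 light. It rose with light in flu toc33 by 2.07 (adjusted p = 1.56e-13), where TOC75-III rose and TOC33 fell. A link between these changes was not tested. GLK1, which activates photosynthesis genes, was lower in flu toc33 in the dark by -0.58 (adjusted p = 1.8e-06).

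**Figure D5:**
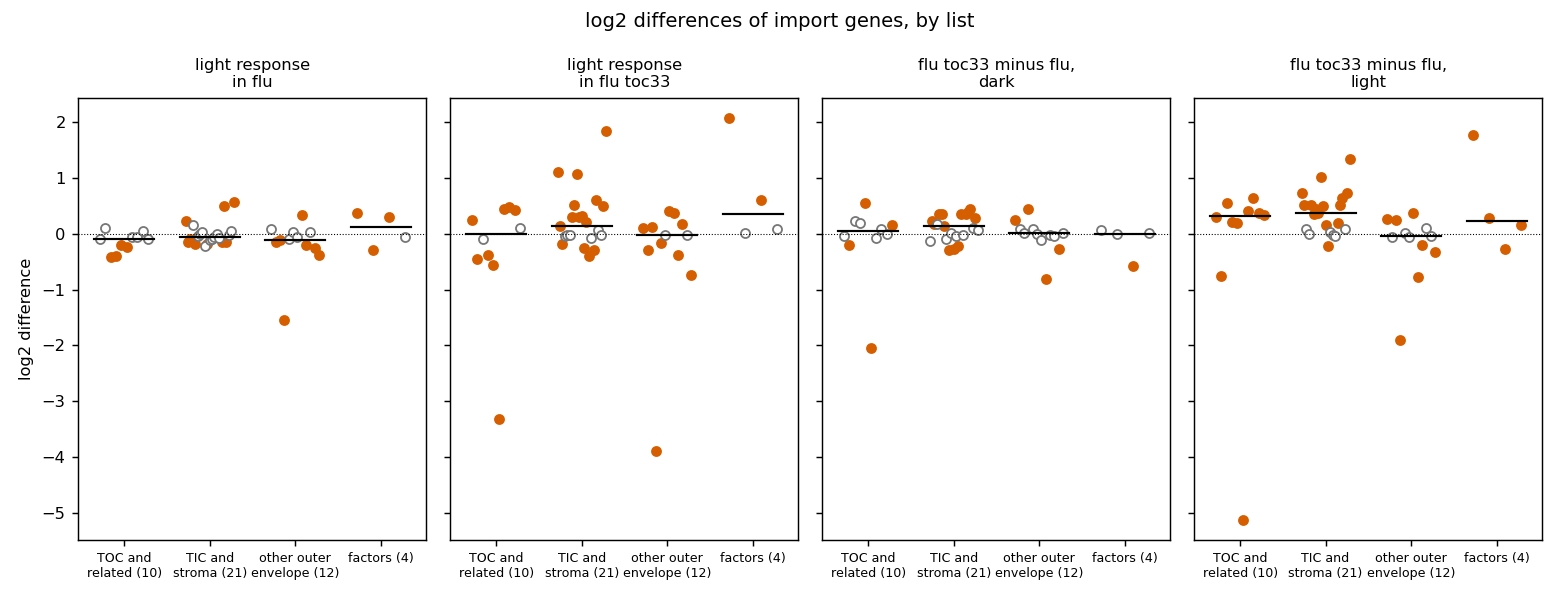
Log2 difference in TPM + 1 for every gene of the member list and of the 3 other import lists (1 point per gene), by comparison; filled points passed the adjusted threshold of 0.05 and lines mark list medians. In the light, the TIC and stromal genes lie mostly above 0 in flu toc33 against flu, with a median of 0.38.

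By the same RMS measure over 12 libraries, TOC34, TOC159 and TOC75-III, whose own profiles moved less than that of TOC33, had neighbours at smaller absolute distances. AT2G33370 (0.0518), RABG3c (0.0519), a small GTPase, and AT1G09690 (0.0534) were nearest to TOC34, whose own RMS was 0.19. PMI1 (0.0459), a chloroplast movement protein, EMB2421 (0.0489) and NdhM (0.0645), a subunit of the chloroplast NDH complex, were nearest to TOC159, whose own RMS was 0.291. ABCB1 (0.0494), an auxin transporter, AT1G75210 (0.0547) and AT4G01810 (0.055) were nearest to TOC75-III, whose own RMS was 0.21. Among the members, the nearest to TOC34 was TOC64-III (0.14), to TOC159 TOC132 (0.135) and to TOC75-III OEP80 (0.0981).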

How the data were processed

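The authors deposited 1 table of TPM values per transcript for 12 libraries, 3 in each of 4 groups, with 48359 transcripts; each library sums to 1000000 TPM. The tools credited in the submitters' processing notes are kallisto 0.46.2 and sleuth 0.30.0, and the build is TAIR10. No source used here gives read depth, strand setting or further steps. Because TPM are shares of a library, a change in a few abundant genes moves all others.

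From these values, transcripts were summed to 27655 loci, and limma 3.58.1 (R 4.3.3, trend) was fitted to log2(TPM + 1) of the 19667 loci with at least 1 TPM in at least 3 libraries, with 1 mean per group and 5 contrasts, adjusted by Benjamini-Hochberg over all loci tested. The fit was tested on simulated data. Fold changes on this scale understate changes of low genes. Sums and ratios were compared by exact two-sided permutation tests (scipy 1.17.1). All 10 members are named; from the lists of other import genes, the 2 largest rises and 2 largest falls called in a comparison may be named, and for 4 members the 3 loci nearest in profile. The members and lists were chosen with earlier results of these data known. Alternatives were other pseudocounts, filters, scalings, fits and left-out libraries. Leaving out flu dark replicate 3 for the lists, sums and ratios was chosen after seeing the data. Labels share replicate numbers, and deviations of same-numbered libraries correlated between -0.169 and 0.125, with 1 of 18 pairs over 0.1, so the numbers were not taken as pairs. No per-library column was left without a sample. No sequence is shown.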

Additional observations from a re-analysis of the deposited data

Results flagged for a closer look

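The light response differed between flu and flu toc33, by the interaction term of the limma fit over all 12 libraries, for 8 of the 10 members. The same interaction was called for 11151 of the 19667 genes tested, 31.6% positive and 25.1% negative. The log2 interaction, light response in flu toc33 minus that in flu, was -3.08 for TOC33, -0.56 for SP1 and -0.35 for TOC159. It was 0.54 for TOC64-III, 0.49 for TOC34, 0.39 for TOC75-III, 0.34 for OEP80 and 0.19 for TOC90. The values for TOC75-III, OEP80 and TOC90 lose their call when any of several single libraries is left out. The values for TOC33, SP1, TOC159, TOC64-III and TOC34 kept theirs under every alternative run.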

How the results depend on the processing

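Over all alternatives, 933 member values kept direction and call, 28 lost a call, 17 gained one and 12 changed sign. All 170 for TOC33 transcripts kept direction and call, but their sizes moved. For AT1G02280.2, light in flu toc33 ranged from -4.203 to -1.248, the genotype difference in the light from -5.993 to -2.577, and the interaction from -3.962 to -1.042. Members called for light in flu, 4 over all libraries, were 7 with quantile normalization and 3 to 7 with a library left out. Sign changes touched values that were not called over all libraries. TOC34 for light in flu ranged from -0.0915 to 0.0128 with a library left out. TOC75-III for light in flu was -0.00722 with quantile normalization and -0.112 to 0.122 with a library left out, and its genotype difference in the dark ranged from -0.165 to 0.0686. OEP80 in the dark ranged from -0.159 to 0.0321. The TOC132 interaction was -0.0835 with median-ratio scaling and -0.0416 to 0.14 with a library left out. The cause was not tested. The replicate block, used although the numbers do not pair the libraries, ended the call of TOC132 between genotypes in the light (adjusted p = 0.0519) and changed no other member call; over all genes it gave 11944, 13861, 7904, 12936 and 10948 calls against 12118, 13964, 8145, 13140 and 11151. Quantile normalization split the genes called for light in flu into 4691 higher and 8660 lower, against 5547 and 6571. Median-ratio scaling gave 6025 and 6906 between genotypes in the light, against 7662 and 5478, and 4871 and 6220 for the interaction, against 6220 and 4931. Quantile normalization added calls for light in flu for TOC90 (-0.17), OEP80 (-0.18) and TOC64-III (-0.14), and median-ratio scaling one for SP1 (0.13). Leaving out flu dark replicate 3 gave 7 members lower for light in flu, where 7435 of 19607 genes tested were called lower. With TPM alone, depth and its counting error are unknown.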
